A study of Mus musculus with 6 samples.

Results

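Keratins are the intermediate filament proteins of epithelia. The genes described here are those whose mouse symbol is Krt, digits and at most a single letter, taken from a table of RNA-seq read counts of medullary thymic epithelial cells. That rule matched 54 symbols; Krt74, annotated as a pseudogene, was left out, and the remaining 53 keratin genes stood among 43432 gene IDs. The study compared CopaE241K/+ mice (MUT, 3 libraries) with Copa+/+ mice (WT, 3 libraries). Copa encodes a subunit of the COPI coat, which returns vesicles from the Golgi to the endoplasmic reticulum, and the MUT mice are heterozygous for an allele with the amino acid change that its name gives. All mice were C57BL/6 and 4 weeks old, and mTEC were isolated from the thymus by a published procedure. The labels do not say whether a library came from 1 animal or from a pool, so the errors below measure the spread between libraries, part of which may be technical.

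A keratin filament is built from paired chains, each pair joining an acidic type I keratin with a basic type II keratin. Simple epithelia use Krt8 with Krt18, the basal layer of stratified epithelia uses Krt5 with Krt14, and the layers above it use Krt1 with Krt10 in skin and Krt4 with Krt13 in the mucosa of mouth and oesophagus. In the thymus, Krt8 and Krt18 mark epithelium of the cortex and much of the medulla, Krt5 and Krt14 mark medullary cells, and Krt1 and Krt10 are found in cornified, corneocyte-like medullary cells. Medullary thymic epithelial cells (mTEC) also transcribe genes of peripheral tissues, which exposes developing T cells to self antigens.

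The MUT libraries held 21218363 to 23366238 counts and the WT libraries 19934513 to 22880945. MUT libraries 1, 2 and 3 had at least 1 count for 19329, 20188 and 24774 genes, and WT libraries 1, 2 and 3 for 17174, 19558 and 21755. Mitochondrially encoded genes took 9.14% to 21.3% of counts in MUT and 11.1% to 18.9% in WT. Levels are given as CPM, counts scaled to a common library size with TMM factors, when libraries are compared, and as TPM, which also divides by exon length, when genes are compared. Of the fixed mTEC markers, Aire, the regulator of tissue antigen expression, ran from 929 to 1563 CPM in MUT and 954 to 1379 CPM in WT, and the epithelial surface protein gene Epcam from 418 to 593 CPM in MUT and 629 to 751 CPM in WT, without overlap. Of all genes tested for a difference, 3.96% were likewise lower in every MUT library. Ccl21a, a chemokine gene of another mTEC subset with near-identical copies, did not exceed 0.189 CPM. The summed level of 5 cortical epithelial markers was 482 to 1052 CPM in MUT and 522 to 788 CPM in WT, and that of 7 thymocyte markers 107 to 600 CPM in MUT and 183 to 381 CPM in WT.

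Keratin reads were a small part of the counts in both genotypes. Keratins took 0.342%, 0.250% and 0.270% of all counts in MUT libraries 1, 2 and 3, and 0.361%, 0.281% and 0.299% in WT libraries 1, 2 and 3. The genotypes overlapped, and within each genotype library 1 had the highest share and library 2 the lowest. Type I keratins summed to 2870 ± 496 TPM in MUT and 2896 ± 103 TPM in WT, and type II keratins to 1213 ± 371 TPM in MUT and 1366 ± 608 TPM in WT (mean ± SD, n = 3 each, as for all means below). The summed TPM of type I keratins thus exceeded that of type II keratins in every library, by 2.06, 2.86 and 2.42 times in MUT libraries 1, 2 and 3 and by 1.45, 3.45 and 2.33 times in WT libraries 1, 2 and 3. These ratios rest on exon lengths, which are long for the type II genes Krt7 (7049 bases), Krt80 (6393) and Krt79 (4753), so they can be overstated.

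By level per exon length, Krt18 came first, at 1058 ± 229.8 TPM in MUT and 1145 ± 300.5 TPM in WT. Krt17, a keratin of skin appendages and stressed epithelium, followed at 981 ± 307 TPM in MUT and 881 ± 144 TPM in WT. Krt5 came next, with 585 ± 316 TPM in MUT and 737 ± 545 TPM in WT, and Krt8 after it, with 266 ± 54.4 TPM in MUT and 233 ± 66.2 TPM in WT. The spreads of Krt18, Krt17 and Krt5 overlap across libraries, but Krt18 exceeded Krt5 within every library. Krt17 exceeded Krt18 only in MUT library 3 (1267 against 835 TPM). Krt5 exceeded Krt17 only in WT library 1 (1333 against 984 TPM). The place of Krt17 is thus not fixed by these libraries. These 4 genes made up 66.7% to 75.2% of the summed keratin TPM in MUT libraries and 60.0% to 83.3% in WT libraries. Next came Krt20, Krt14 and Krt16, with means over the 6 libraries of 169, 132 and 99.9 TPM, whose spreads also overlap. Exon lengths are the union of all annotated transcripts, which is long for Krt7 (7049 bases), Krt80 (6393) and Krt79 (4753), so the TPM of those genes can be understated.

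At the other end, keratins of the hair shaft were counted rarely and unevenly. Of the 53 keratins, 34 had a count in all 6 libraries, 12 in 4 or 5 of them, and 7 in 3 or fewer. A mean of at least 5 CPM over the 6 libraries was reached by 32 keratins, 30 of which had a count in every library. For 16 keratins more than 50% of the CPM summed over the libraries came from 1 library, and 10 of those 16 were hair shaft and nail keratins. Among the 43 keratins that could be tested the number was 7, and among all tested genes the share was 19.5%. Libraries with more genes detected also held more keratins: 42, 46 and 51 of the 53 had a count in MUT libraries 1, 2 and 3, and 40, 46 and 49 in WT libraries 1, 2 and 3.

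**Figure D1:**
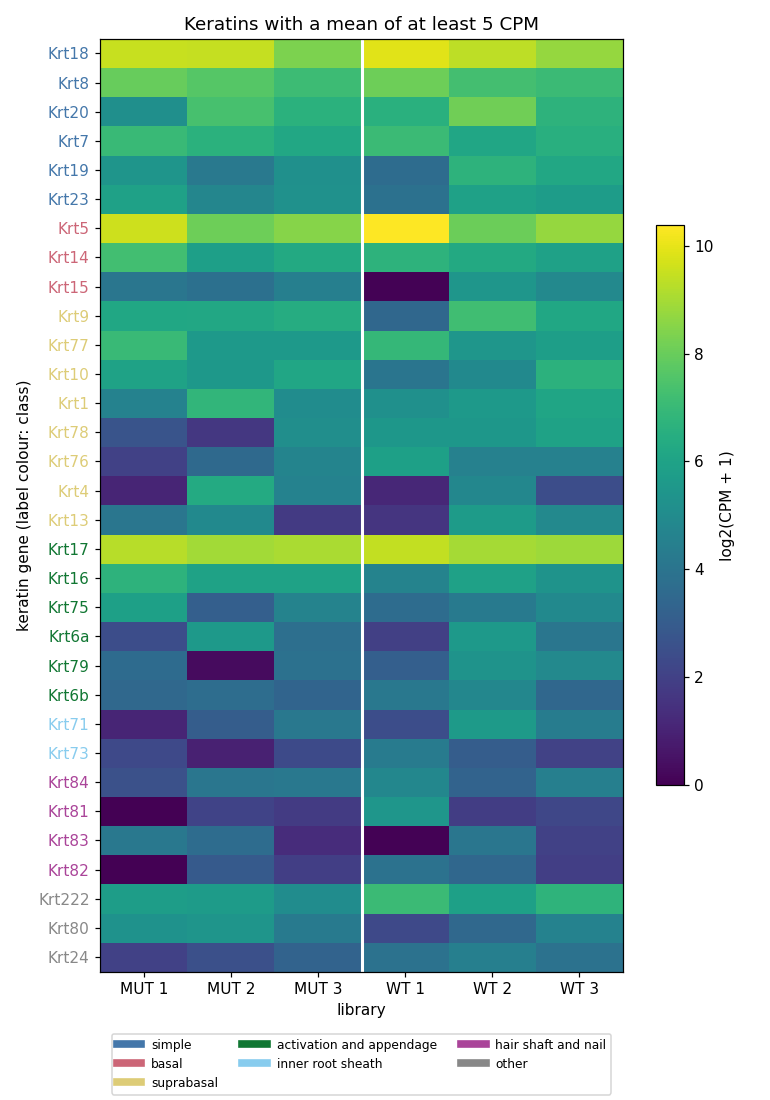
Colour shows log2(CPM + 1) of the 32 keratins with a mean of at least 5 CPM (rows, label colour gives the class) in the 3 MUT and 3 WT libraries (columns). Krt18, Krt5 and Krt17 are bright in all 6 columns, while Krt15, Krt79, Krt4 and Krt81 each have columns that are nearly dark.

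Promoter sequence was available from RefSeq (build GRCm38.p6) for 36 of the 53 keratins. Those of Krt5, Krt8 and Krt18 are shown because these genes carry much of the keratin RNA and include the cortical and medullary marker keratins; those of Krt24 and Krt78 are shown because their MUT libraries all lay below the WT libraries. Each line gives the 200 bases before the start annotated by RefSeq, 5′ to 3′ on the gene's strand, and capitals mark matches to a searched motif.
Krt5, chr15:101712906-101713105, minus strand: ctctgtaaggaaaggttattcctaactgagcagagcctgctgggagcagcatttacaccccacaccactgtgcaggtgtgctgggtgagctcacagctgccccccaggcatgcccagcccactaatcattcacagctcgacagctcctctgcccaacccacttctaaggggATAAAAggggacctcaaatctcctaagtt
Krt8, chr15:102004343-102004542, minus strand: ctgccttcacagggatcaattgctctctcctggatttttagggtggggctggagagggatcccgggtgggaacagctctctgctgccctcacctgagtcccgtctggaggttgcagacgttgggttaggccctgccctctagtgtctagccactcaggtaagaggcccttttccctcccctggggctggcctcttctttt
Krt18, chr15:102028016-102028215, plus strand: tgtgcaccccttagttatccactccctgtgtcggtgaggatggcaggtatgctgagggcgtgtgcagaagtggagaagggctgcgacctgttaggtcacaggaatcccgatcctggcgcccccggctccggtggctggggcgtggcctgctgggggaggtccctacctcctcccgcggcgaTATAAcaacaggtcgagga
Krt24, chr11:99285263-99285462, minus strand: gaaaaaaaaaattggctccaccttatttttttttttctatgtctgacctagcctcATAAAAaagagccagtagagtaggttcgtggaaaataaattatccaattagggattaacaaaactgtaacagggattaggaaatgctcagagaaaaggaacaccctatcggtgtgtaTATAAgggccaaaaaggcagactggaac
Krt78, chr15:101954288-101954487, minus strand: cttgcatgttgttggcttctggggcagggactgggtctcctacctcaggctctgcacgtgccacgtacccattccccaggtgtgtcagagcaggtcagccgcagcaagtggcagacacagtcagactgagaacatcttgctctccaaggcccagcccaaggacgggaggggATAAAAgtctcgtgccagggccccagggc

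The motifs searched, on both strands, were the TATA-type words TATAA and ATAAAA (which can overlap each other), the AP-1 site TGANTCA, the GC box GGGCGG and the core of the interferon-stimulated response element (a pair of GAAA words with any 2 bases between). In the 37 keratin windows (Krt13 had a pair), TATAA was found in 62.2% and ATAAAA in 51.4%, and in the 32851 windows of all genes in 18.5% and 13.5%. The matches of Krt5 and Krt78 lay at the same distance, 29 to 24 bases before the start, and the TATAA of Krt24 lay 28 to 24 bases before it. Krt18 had TATAA 19 to 15 bases before its RefSeq start, and its partner Krt8 had no match to any of the 5 motifs. GENCODE, the source of the gene positions given here, starts Krt18 earlier, at 102028180, so the TATAA lies after that start. GENCODE also starts Krt8 earlier, at 102004482 on the minus strand, so much of the printed Krt8 window lies inside the gene. TGANTCA was found in 5.41% of keratin windows and 5.48% of all windows, GGGCGG in 5.41% and 31.0%, and the interferon element core in 0 of 37 keratin windows and 2.27% of all windows. The keratin windows with TGANTCA were the pair of Krt13, so a single keratin gene held that motif. These matches are descriptions of letters and not binding sites.

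No keratin passed the test for a difference between genotypes. Of the 53 members, 43 had enough counts to be tested, and 0 were called at 0.05 by the quasi-likelihood test of edgeR, in which Benjamini-Hochberg adjustment over 17172 genes gave every keratin an adjusted p of 0.999875. The same held for all genes, with 0% called. At an unadjusted p under 0.05 there was 1 keratin, Krt222, on the lower side, beside 3.48% of all tested genes (1.62% higher and 1.85% lower). DESeq2 with default settings also called 0 keratins, against 0.424% of the genes it tested. The spread between libraries was large, with a median standard error (SE) of 1.03 for the log2 fold change, MUT minus WT, of tested keratins and likewise 1.03 for all tested genes. Differences below are therefore values with their errors, and a keratin that missed the threshold is not shown to be equal in both genotypes. Since these are bulk libraries, fewer cells of a type and less RNA per cell cannot be told apart.

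Of the tested keratins, 16 had a fitted log2 fold change above 0 and 27 below, with a median of -0.22, while 49.4% of all tested genes lay above 0 and their median was -0.01. The MUT and WT libraries did not overlap in CPM for 4 of the 43, a number set beside 9.35% of all tested genes. The 1 that was higher in every MUT library was Krt16 (5.39% of all genes), and the 3 that were lower were Krt222, Krt78 and Krt24 (3.96% of all genes). In plain CPM of all counts Krt78 gave way to Krt6b, with 8.86% of all tested genes free of overlap, and in TPM, which is not TMM-scaled, 0 keratins and 7.81% of all tested genes were. Without WT library 1, which had the fewest genes detected, the count was 9 of 43, 1 higher and 8 lower. Of the 17172 tested genes 18.7% did not overlap when it was left out, 1618 higher and 1593 lower.

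**Figure D2:**
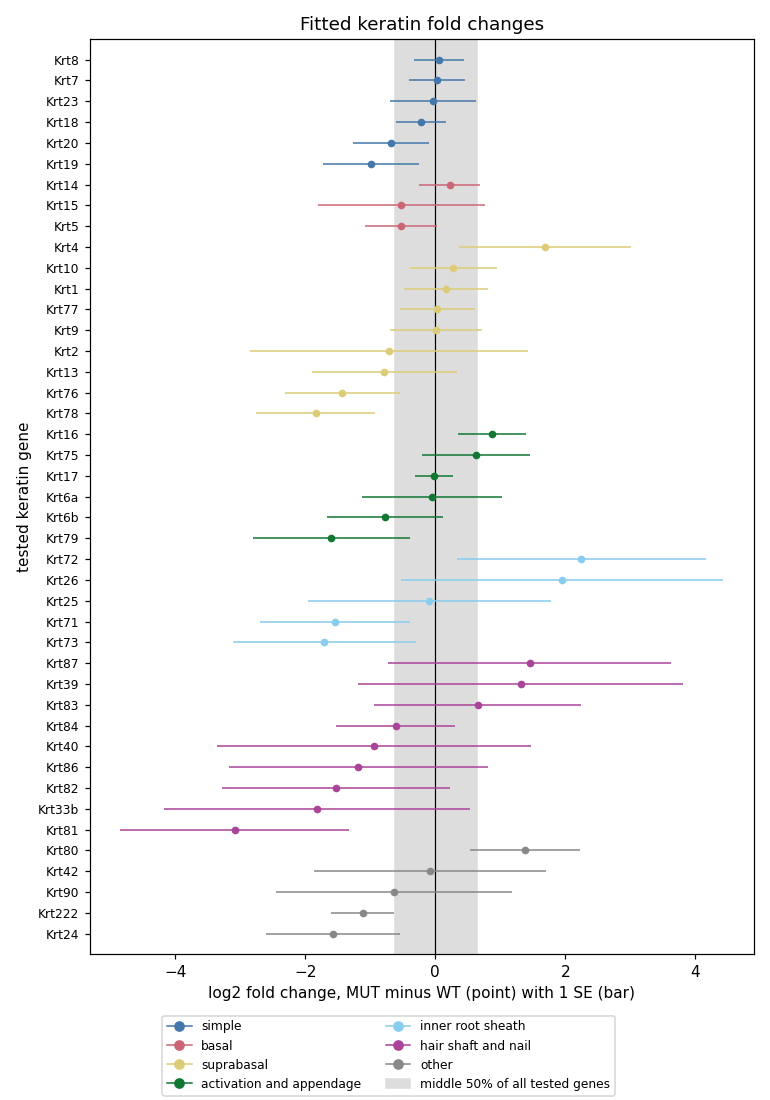
Points are fitted log2 fold changes, MUT minus WT, of the 43 tested keratins grouped by class, bars are 1 SE, and the grey band holds the middle 50% of all tested genes. Most bars cross 0, those of the hair shaft and inner root sheath keratins are the widest as a group, and Krt81 has the lowest fitted value at -3.09.

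Krt16, Krt222, Krt78 and Krt24 were the members without overlap. Krt16 (ENSMUSG00000053797, chromosome 11, 100246091 to 100248902, GRCm38), which activated keratinocytes use in wounds, had 102, 62.6 and 62.6 CPM in MUT libraries 1, 2 and 3, and 24.1, 60.8 and 38.9 CPM in WT libraries 1, 2 and 3. The gap was narrow, because WT library 2 lay just under MUT libraries 2 and 3, and the log2 fold change was 0.88 (SE 0.53). Krt222 (ENSMUSG00000035849, chromosome 11, 99232761 to 99244085), a keratin-like gene at the edge of the type I cluster, had 54.2, 51.1 and 32.0 CPM in MUT and 133, 58.9 and 106 CPM in WT. Its log2 fold change was -1.12 (SE 0.49, unadjusted p 0.0405), the smallest p of any keratin (0.121 without WT library 1), and all 3 WT libraries stood above the MUT libraries, WT library 2 by the least.

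Krt78 (ENSMUSG00000050463, chromosome 15, 101946001 to 101954287), a type II keratin of the upper epidermis, had 5.57, 2.25 and 33.6 CPM in MUT and 43.9, 43.6 and 61.2 CPM in WT. MUT libraries 1 and 2 were low and MUT library 3 came near the WT range. The log2 fold change was -1.84 (SE 0.91). It was -3.67 without MUT library 3 (unadjusted p 0.0026 in edgeR) and -1.36 without MUT library 2. In the fit without MUT library 3, 762 of 17818 genes had an unadjusted p under 0.05 and 0 were called. Krt78 was called only by DESeq2 with the replicate number as a term, a fit that called 1.05% of all genes. Krt24 (ENSMUSG00000020913, chromosome 11, 99279959 to 99285262) had 3.02, 4.84 and 8.78 CPM in MUT and 14.0, 21.5 and 14.1 CPM in WT, with a log2 fold change of -1.57 (SE 1.03). Of the marker lists, 3 had all their tested genes below 0, that of cortical epithelium had all 5 above 0 (median log2 fold change 0.40), and the rest were mixed. The 8 markers of corneocyte-like mTEC, the cornified cells of the medulla, summed to 484, 496 and 510 CPM in MUT and 638, 902 and 847 CPM in WT, and Flg was at or near 0 in all libraries. Of its 7 tested genes 0 were called, and Ly6d (log2 fold change -1.45, SE 0.40) was the 1 without overlap. Krtdap (-0.79, SE 0.38), Lypd3 (-1.37, SE 0.92) and Spink5 (-0.47, SE 0.32) also lay below 0 by more than 1 SE. Lor (-0.47, SE 1.59), Sbsn (-0.10, SE 0.53) and Ivl (-0.19, SE 0.95) differed by less than their errors. Among all tested genes, 3.96% were lower in every MUT library, a share that also serves for the lists below. The 4 tuft cell markers summed to 239, 226 and 160.1 CPM in MUT and 622, 330.4 and 283 CPM in WT, with 0 called and Dclk1 without overlap. The 7 markers of dendritic cells and macrophages summed to 471 to 830 CPM in MUT and 481 to 1017 CPM in WT, with 0 called and Adgre1 without overlap. Krt1 and Krt10, keratins of the cornified cells, had fitted values of 0.16 (SE 0.65) and 0.28 (SE 0.67), smaller than their errors. The sign was not stable, as Krt1 came to -0.88 without MUT library 2 and Krt10 to -0.16 without WT library 1. The part of any of these cells in the Krt78 and Krt24 values was not tested.

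**Figure D3:**
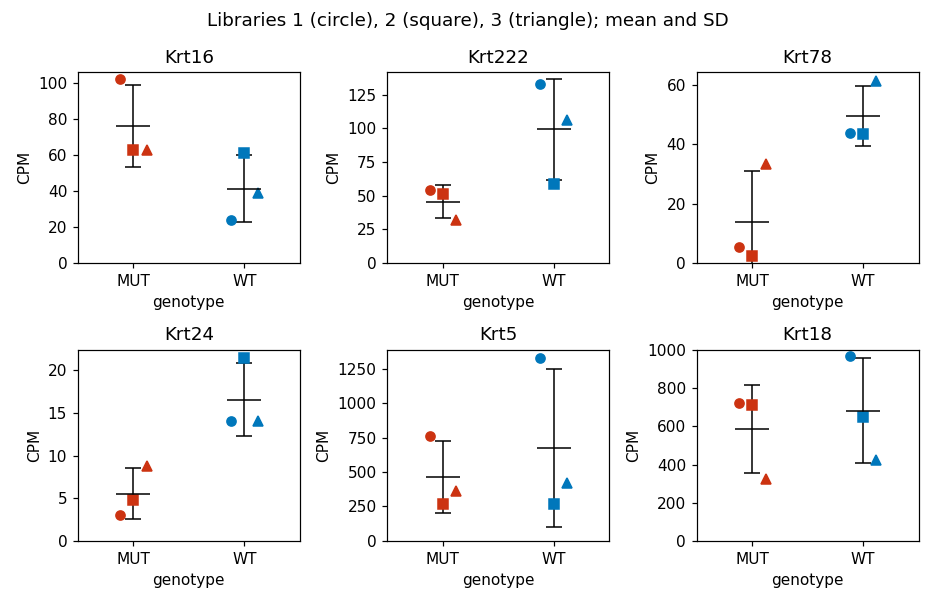
CPM of 6 keratins in MUT (left) and WT (right), with each library as a symbol by its number and the mean with SD in black. For Krt16, Krt222, Krt78 and Krt24 the genotypes do not overlap, while Krt5 and Krt18 overlap and are high in library 1 and low in library 2 or 3 of both genotypes.

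The 6 keratins of simple epithelia made up the largest class by level, with 1624 ± 209 TPM in MUT and 1769 ± 190.1 TPM in WT, or 40.7% ± 7.91 of the summed keratin TPM in MUT and 41.9% ± 5.37 in WT. All 6 were tested, 0 were called, 2 had a value above 0, and their median log2 fold change was -0.13. Krt18 (ENSMUSG00000023043, chromosome 15, 102028180 to 102032027) had 725, 713 and 322 CPM in MUT and 970.3, 652 and 425 CPM in WT, with library 3 lowest in both genotypes. Its log2 fold change was -0.22 (SE 0.39). Krt8 (ENSMUSG00000049382, chromosome 15, 101996698 to 102004482) had 246, 198 and 139 CPM in MUT and 271, 156 and 133 CPM in WT, a log2 fold change of 0.06 (SE 0.39), with the same order of libraries in both genotypes.

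Krt7, of glandular and ductal epithelium, varied least among the simple keratins. It had 131, 96.5 and 73.2 CPM in MUT and 133, 70.4 and 93.1 CPM in WT (log2 fold change 0.02, SE 0.43). Krt20, known from gut and bladder lining, had 34.8, 164 and 98.1 CPM in MUT and 95.0, 278 and 103 CPM in WT, with library 2 highest in both genotypes. Its log2 fold change was -0.68 (SE 0.58) and came to -0.011 without WT library 2 and -1.27 without MUT library 2. Krt19, of ducts and epithelial progenitors, had 41.3, 17.3 and 35.7 CPM in MUT and 11.5, 103 and 72.7 CPM in WT. The WT values of Krt19 lay on either side of all 3 MUT values, and its log2 fold change was -0.99 (SE 0.74). It was -1.49 without WT library 1 (unadjusted p 0.0178 in edgeR) and -0.44 without WT library 2. In the fit without WT library 1, 735 of 19074 genes had an unadjusted p under 0.05 and 0 were called. Krt23, a type I keratin of glandular epithelia, had 59.6, 26.2 and 37.3 CPM in MUT and 13.6, 60.3 and 52.6 CPM in WT (log2 fold change -0.04, SE 0.66), and WT library 1 was again the low one.

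The basal class summed to 763 ± 396 TPM in MUT and 885 ± 532 TPM in WT, and 0 of its 3 genes were called. Krt5 (ENSMUSG00000061527, chromosome 15, 101707070 to 101712898) had 759, 268 and 362 CPM in MUT and 1327, 264 and 421 CPM in WT. Library 1 of each genotype stood far above the other two, and the log2 fold change of -0.54 (SE 0.55) became 0.43 without WT library 1 and -1.09 without MUT library 1. Krt14 (ENSMUSG00000045545, chromosome 11, 100203162 to 100207548), its partner, had 148, 56.2 and 78.8 CPM in MUT and 104, 78.7 and 60.9 CPM in WT (log2 fold change 0.22, SE 0.47), and was -0.27 without MUT library 1. Krt15, of basal cells that include hair follicle stem cells, had 15.7, 13.3 and 21.2 CPM in MUT and 0.0575, 43.3 and 28.8 CPM in WT. The first WT value stands for 1 count, against 654 and 919 counts in the other WT libraries, and the log2 fold change was -0.52 (SE 1.29).

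Suprabasal keratins of skin and mucosa summed to 360.3 ± 84.9 TPM in MUT and 359 ± 142 TPM in WT. Of 10 members 9 were tested and 0 called, 5 had a value above 0, and the median log2 fold change was 0.01. Krt10, of cornifying epidermis, had 61.8, 45.3 and 69.4 CPM in MUT and 15.5, 29.1 and 101 CPM in WT (log2 fold change 0.28, SE 0.67), so the WT values spanned the MUT values. Krt1, its partner, had 23.2, 113 and 31.7 CPM in MUT and 35.7, 47.2 and 67.0 CPM in WT. Its log2 fold change of 0.16 (SE 0.65) rested on MUT library 2 and was -0.88 without it.

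Krt9, the keratin of palms and soles, had 71.2, 74.0 and 83.8 CPM in MUT and 10.1, 147 and 71.3 CPM in WT. The 3 MUT libraries were close together and the WT libraries ranged far to either side, with a log2 fold change of 0.01 (SE 0.71). Krt77, a skin type II keratin, had 129, 47.6 and 46.5 CPM in MUT and 120.1, 42.4 and 55.5 CPM in WT (log2 fold change 0.03, SE 0.57), with library 1 highest in both genotypes as for Krt5. Krt76, a keratin of the palate and other oral epithelium, had 3.02, 10.7 and 24.9 CPM in MUT and 59.2, 22.6 and 22.6 CPM in WT. Only MUT library 3 exceeded a WT library, and the log2 fold change was -1.43 (SE 0.89), running to -0.82 without WT library 1 and -2.35 without MUT library 3.

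The mucosal partners were among the most uneven of the well-counted keratins. Krt4 had 1.13, 79.8 and 23.5 CPM in MUT and 1.21, 26.7 and 4.53 CPM in WT. Library 1 was near 0 and library 2 highest in both genotypes. The log2 fold change of 1.69 (SE 1.32) was 0.18 without MUT library 2 and 3.58 without WT library 2 (unadjusted p 0.0297 in edgeR). In the fit without WT library 2, 819 of 18696 genes had an unadjusted p under 0.05 and 0 were called. Krt13 had 15.8, 29.1 and 2.42 CPM in MUT and 2.07, 51.1 and 28.5 CPM in WT (log2 fold change -0.79, SE 1.12), and it was 0.04 without WT library 2. Krt2, of the upper epidermis, did not exceed 2.10 CPM in MUT or 7.61 CPM in WT, and the corneal keratin gene Krt12 had at most 54 counts, too few to be tested.

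In the class of activation and appendage keratins, which summed to 1181 ± 350.4 TPM in MUT and 1019 ± 105 TPM in WT, 6 of 6 were tested, 0 called and 2 had a value above 0. Krt17 (ENSMUSG00000035557, chromosome 11, 100256217 to 100261029), which interferon-gamma induces in human keratinocytes, had 616, 484 and 528 CPM in MUT and 691, 504 and 458 CPM in WT. It was the steadiest of all keratins, with a coefficient of variation of 16.3% over the 6 libraries, and its log2 fold change was -0.02 (SE 0.29). Krt75, of the companion layer around the hair root, had 59.0, 7.86 and 23.7 CPM in MUT and 11.7, 18.0 and 29.1 CPM in WT. Its log2 fold change of 0.62 (SE 0.84) was -0.31 without MUT library 1, the highest library.

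Krt6a and Krt6b are wound-response keratins so alike that their reads could have been divided by the counting, and their separate values are uncertain. Krt6a had 4.48, 47.3 and 12.9 CPM in MUT and 2.93, 48.2 and 15.98 CPM in WT (log2 fold change -0.05, SE 1.08), with the same order of libraries in both genotypes. Krt6b had 10.3, 12.1 and 9.21 CPM in MUT and 16.9, 27.2 and 10.1 CPM in WT (log2 fold change -0.78, SE 0.90), and was thus far more even than Krt6a. Krt79, of the hair follicle opening and sebaceous duct, had 11.2, 0.240 and 13.5 CPM in MUT and 7.87, 39.3 and 28.9 CPM in WT (log2 fold change -1.61, SE 1.21). MUT library 2 held 5 counts of it.

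Inner root sheath keratins, which form the sheath around the growing hair, summed to 36.4 ± 22.2 TPM in MUT and 43.5 ± 18.2 TPM in WT. Of 7 members 5 were tested, with 0 called and 2 above 0. Krt71 had 1.08, 7.28 and 16.8 CPM in MUT and 4.48, 49.8 and 19.5 CPM in WT (log2 fold change -1.55, SE 1.15). Krt73 had 3.92, 0.958 and 4.05 CPM in MUT and 18.8, 7.30 and 3.08 CPM in WT (log2 fold change -1.71, SE 1.40). In both genes a single WT library was far above the rest. Krt72 and Krt26 had fitted values of 2.25 (SE 1.92) and 1.96 (SE 2.48) on at most 266 counts in any library. Krt25 lay at -0.09, and Krt27 was not tested. The untested Krt28 drew 93.2% of its CPM from MUT library 1, which held 148 counts, while no WT library held more than 1.

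Hair shaft and nail keratins formed the class with the most members and a low level, 49.6 ± 18.3 TPM in MUT and 70.7 ± 17.6 TPM in WT over 16 genes. Of these 9 were tested, 0 called and 3 lay above 0. Krt84, of nail and tongue, had 4.91, 15.8 and 16.6 CPM in MUT and 26.6, 8.90 and 21.5 CPM in WT (log2 fold change -0.61, SE 0.92). Krt81 had 0, 3.21 and 2.49 CPM in MUT and 42.4, 2.68 and 3.65 CPM in WT. WT library 1 thus held 77.9% of its CPM, and the log2 fold change of -3.09 (SE 1.76) was -0.74 without that library. Plain DESeq2 gave no p-value for Krt81.

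Krt83, another keratin of the hair shaft, had 16.7, 11.7 and 1.48 CPM in MUT and 0.0575, 15.9 and 3.04 CPM in WT (log2 fold change 0.65, SE 1.59). The value was 0.058 without MUT library 1, 0.081 without WT library 1 and 2.67 without WT library 2. Its low WT library was the one in which Krt81 was high. Krt81, Krt83, Krt86 and Krt87 are close relatives in the same stretch of chromosome 15, so reads could have been shared among them. Krt82 had 0, 6.56 and 2.75 CPM in MUT and 14.2, 9.89 and 2.77 CPM in WT (log2 fold change -1.53, SE 1.76). The other 12 members of the class had means of 0.0235 to 2.36 CPM over the 6 libraries. Of these, Krt39 and Krt87 had fitted log2 fold changes above 0, Krt33b, Krt40 and Krt86 below 0, and Krt31, Krt32, Krt33a, Krt34, Krt35, Krt36 and Krt88 had too few counts to be tested. Krt31 had its 12 counts in WT library 3 alone, Krt34 had 3 counts in WT library 2 alone, and Krt35 was counted only in MUT libraries 1 and 3, with 2 and 18 counts.

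Among the 5 remaining keratins, Krt222 and Krt24 are given above. Krt80, a type II keratin found in many epithelia, had 38.5, 42.1 and 18.1 CPM in MUT and 3.85, 10.5 and 23.5 CPM in WT. WT library 3 lay above MUT library 3, and the log2 fold change was 1.38 (SE 0.84). Krt90 and Krt42 did not exceed 9.09 CPM in any library, and their log2 fold changes were -0.63 (SE 1.82) for Krt90 and -0.08 (SE 1.79) for Krt42.

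The shares of the basal and simple classes overlapped between genotypes and had the same order of library numbers in each. Basal keratins held 24.0%, 10.95% and 18.5% of the summed keratin TPM in MUT libraries 1, 2 and 3, and 29.7%, 11.6% and 18.2% in WT libraries 1, 2 and 3. Simple keratins held 39.8%, 49.0% and 33.3% in MUT and 40.1%, 48.0% and 37.7% in WT. For both classes the gap between same-numbered libraries was smaller than the range within a genotype. The other 5 classes did not share an order: activation and appendage keratins, for example, held 26.8%, 25.8% and 33.3% in MUT and 21.2%, 25.1% and 25.9% in WT. Suprabasal keratins held 6.49%, 10.3% and 10.3% in MUT and 4.50%, 9.75% and 11.9% in WT. The labels do not say what same-numbered libraries share, beyond an ending in their source names, and what moves with the number was not tested.

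**Figure D4:**
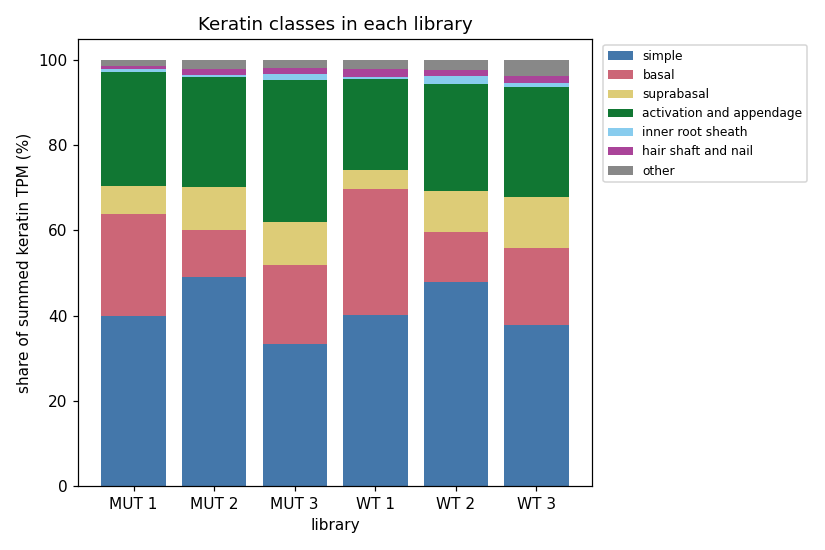
Stacked bars give the share of the summed keratin TPM (percent) held by each of 7 keratin classes in the 3 MUT libraries (left) and the 3 WT libraries (right). Simple keratins take 33.3% to 49.0% of every bar, and the basal part is largest in library 1 and smallest in library 2 of both genotypes.

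Textbook filament partners differed in how closely they kept to each other. Krt18 exceeded Krt8 in TPM by 4.02, 4.90 and 3.17 times in MUT libraries 1, 2 and 3 and by 4.88, 5.70 and 4.35 times in WT libraries 1, 2 and 3, the narrowest range of the 5 pairs in log2 terms. The log2 ratio of Krt5 to Krt14 was 2.03, 1.93 and 1.88 in MUT and 3.35, 1.43 and 2.47 in WT, so the type II partner was the more abundant of this pair in all 6 libraries. For Krt1 over Krt10 the log2 ratio was -2.48, 0.25 and -2.19 in MUT and 0.14, -0.37 and -1.65 in WT, with either partner ahead depending on the library. Krt4 over Krt13 ran from -4.04 to 3.05 in MUT and from -2.88 to -1.01 in WT, and Krt6a over Krt16 from -5.14 to -1.03 in MUT and from -3.67 to -0.96 in WT. The genotypes overlapped in the ratios of all 5 pairs.

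The keratin genes lie in a pair of clusters, 27 on chromosome 11 (99232761 to 100269871) and 26 on chromosome 15 (101347444 to 102032027). Krt18 is the only type I gene on chromosome 15. On chromosome 11, the 7 neighbouring hair keratins from Krt33a to Krt36 had means of 0.0235 to 2.36 CPM over the 6 libraries. The next 7 keratins along, from Krt13 to Krt17, all had means of 20.4 CPM or more, the highest being Krt17 at 547 CPM. The 4 inner root sheath keratins from Krt25 to Krt28 had 0.576 to 1.88 CPM and sat between Krt24 and Krt10. On chromosome 15, the 8 keratins from Krt1 to Krt18 all had means of at least 16.8 CPM. Of the 7 from Krt87 to Krt82, which are hair shaft and nail keratins, 4 had means of at least 5 CPM. For 12 members another annotated gene overlaps on the opposite strand, Krt5, Krt7, Krt8 and Krt10 among them, and as the strand setting of the counting is not given in the sources used here, their reads cannot be told apart from those of the overlapping gene.

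**Figure D5:**
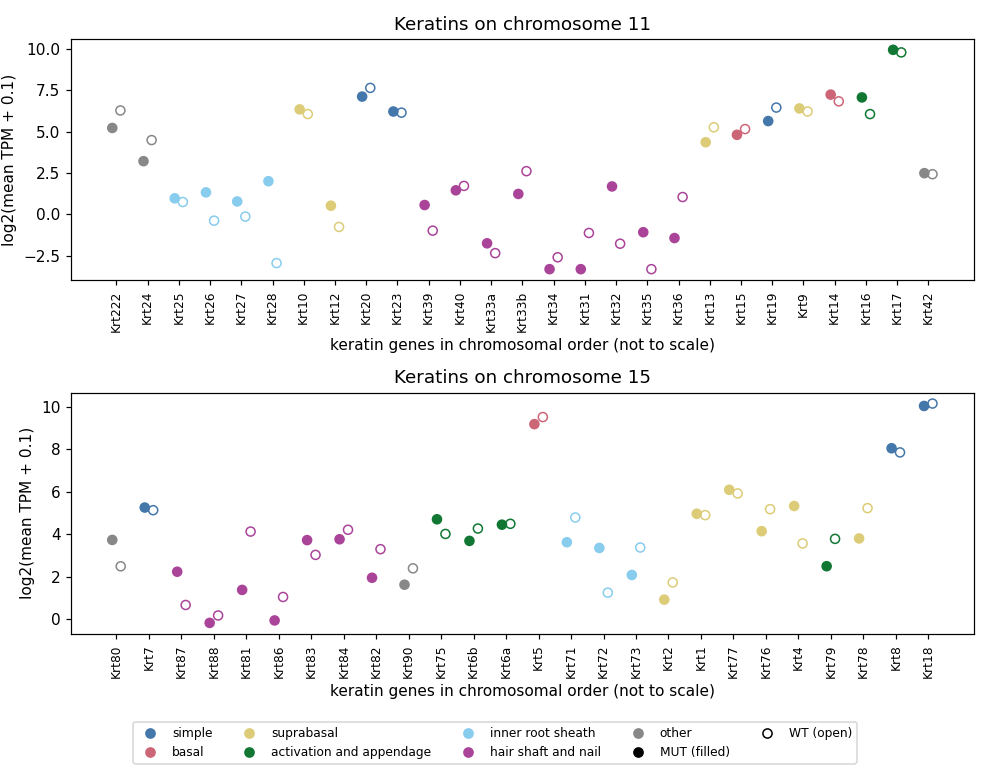
Mean TPM per genotype, as log2(mean TPM + 0.1), of the 27 keratins on chromosome 11 (top) and the 26 on chromosome 15 (bottom) in chromosomal order, MUT filled and WT open, coloured by class. The hair keratins from Krt33a to Krt36 form a low stretch directly before the high stretch from Krt13 to Krt17.

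Genes that work with keratins showed 0 calls as well. Of 10 tested linker genes, which tie filaments to desmosomes and other structures, 3 had a value above 0 and 7 below, with a median log2 fold change of -0.30. Dsp, the desmosomal anchor of keratin filaments, had 613, 367 and 640.3 CPM in MUT and 777, 579 and 765 CPM in WT (log2 fold change -0.39, SE 0.31), with overlap only between MUT libraries 1 and 3 and WT library 2. Jup, another desmosome protein gene, had 258, 107 and 253 CPM in MUT and 272, 337 and 252 CPM in WT (log2 fold change -0.48, SE 0.38).

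Among 15 tested regulators of keratin genes and epithelial differentiation, 6 lay above 0 and 9 below, with a median of -0.11. Ovol1, a factor of epidermal differentiation, had 71.3, 190.1 and 19.7 CPM in MUT and 26.9, 61.3 and 20.99 CPM in WT (log2 fold change 1.36, SE 0.74). Hr, a corepressor needed for the hair cycle, had 25.7, 11.8 and 12.1 CPM in MUT and 6.09, 1.60 and 8.98 CPM in WT (log2 fold change 1.57, SE 1.09), and its genotypes did not overlap. Of 14 tested genes for other intermediate filaments, 11 lay above 0 and 3 below, with a median of 0.55. Synm, which encodes synemin, had 13.7, 6.23 and 12.5 CPM in MUT and 2.53, 0.0942 and 3.34 CPM in WT (log2 fold change 2.44, SE 1.52), without overlap. Genes higher in every MUT library, as Hr and Synm were, made up 5.39% of all tested genes. Des, the muscle filament desmin, had 80.6, 22.5 and 24.0 CPM in MUT and 15.8, 22.7 and 19.2 CPM in WT (log2 fold change 1.14, SE 0.71), where MUT library 1 stood apart.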

How the data were processed

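The authors deposited raw read counts per Ensembl gene ID, 1 column per library, not normalized. The aligner STAR (2.4.2a), DESeq2 (1.26.0) and build GRCm38 are named, without roles, per the submitters' processing notes. Which program and annotation produced the counts, and whether strand was used, is not given in the sources used here. Per the labels' protocols, cDNA was made with a Nugen Ovation kit and libraries with Nextera XT, and no molecular identifiers are described.

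Symbols matched 42462 of 43432 IDs. Positions and exon lengths are from GENCODE M21 (GRCm38). The test was edgeR 4.0.16 (R 4.3.3): TMM, filterByExpr, robust quasi-likelihood F-test, Benjamini-Hochberg adjustment over 17172 genes at 0.05, genotype as the only term. CPM uses TMM-scaled sizes of the tested genes; TPM uses exon lengths and no TMM. The SE is the unshrunk log2 coefficient divided by the root of F. The code of the fit was tested on simulated data.

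Values per library are given for keratins with a mean of at least 5 CPM, an unadjusted p under 0.05 or genotypes without overlap, and, in each partner list, for the 2 genes of smallest p. Other keratins named with counts or fitted values were chosen after their values were seen. Classes, members and lists were chosen with earlier results of these data known. Alternatives were other normalizations and filters, the replicate number as a block, limma-voom (limma 3.58.1), DESeq2 1.42.0, an adjusted p of 0.1 and each library left out.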

Additional observations from a re-analysis of the deposited data

How the results depend on the processing

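The count of 0 keratins and 0 genes called held under DESeq2 size factors, upper-quartile factors, limma-voom, a stricter filter, a threshold of 0.1 and with any 1 library left out. For all genes it became 73 without a filter on low counts, 116 with DESeq2 and 302 with DESeq2 and the replicate block, and 1 keratin, Krt78, was called in that last fit (log2 fold change -2.74, adjusted p 0.0245, against 1.05% of all genes, and called in no other fit). The cause was not tested. Over all genes the median log2 fold change, -0.01 in edgeR, was 0.16 when no filter was used, 0.16 in DESeq2 and 0.20 in DESeq2 once blocked.

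The median keratin log2 fold change stayed below 0 in every fit, and ran from -0.39 to -0.064 with 1 library left out. The MUT minus WT difference in keratin share of counts was -0.026 percentage points, and -0.054 to -0.0026 with 1 library left out, the last without WT replicate 1. Apart from an unexplained ending in their source names, nothing in the labels ties libraries of equal number to a shared source. Their deviations from the group means correlated at 0.0592 to 0.127, and 6 of 6 correlated best with their own number. These 6 matches are not independent, because the deviations within a group sum to 0 and the same correlations are read from both genotypes. MUT lay below WT in 3 of 3 same-numbered pairs for the keratin share of counts and for Krt18 over Krt8. For the activation and appendage share of keratin TPM it lay above WT in 3 of 3 (26.8%, 25.8% and 33.3% against 21.2%, 25.1% and 25.9%). MUT lay below WT in 3 of 3 for the share of hair shaft and nail keratins (0.714%, 1.479% and 1.556% against 1.825%, 1.552% and 1.557%). The same held, without overlap, for the class that includes Krt222 and Krt24 (1.40%, 1.96% and 1.73% against 2.18%, 2.25% and 3.70%). No count of such pairs over all genes was made. With the replicate block edgeR called 1 gene and 0 keratins.

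Of 32 keratins with values in full, 17 kept the sign of their log2 fold change in the alternatives run, 14 for each but Krt81, for which plain DESeq2 gave no p-value and was left out. With 1 library left out the values of those not printed elsewhere ran from -1.065 to -0.368 for Krt6b, -2.560 to -0.534 for Krt71, -2.130 to -0.805 for Krt73, -2.147 to -1.042 for Krt79, 0.948 to 2.194 for Krt80, -2.719 to -0.947 for Krt82 and -0.965 to -0.230 for Krt84. In fits on all libraries the sign turned for Krt1 (-0.174 with the block, -0.190 with DESeq2 and the block, -0.211 with limma-voom), Krt6a (0.087 and 0.070 with the block in edgeR and DESeq2), Krt15 (0.530 and 0.532 likewise, 1.485 with limma-voom), Krt17 (0.066 with upper-quartile factors, 0.009 with limma-voom), Krt23 (0.075 and 0.061 with the block, 0.066 with limma-voom) and Krt77 (-0.010 with DESeq2 and the block). With 1 library left out it turned in the ranges -0.877 to 0.530 for Krt1, -1.093 to 0.429 for Krt5, -1.374 to 1.176 for Krt6a, -0.218 to 0.292 for Krt7, -0.148 to 0.426 for Krt8, -0.514 to 0.892 for Krt9, -0.156 to 1.397 for Krt10, -1.572 to 0.038 for Krt13, -0.267 to 0.479 for Krt14, -1.111 to 0.196 for Krt15, -0.139 to 0.171 for Krt17, -0.468 to 0.126 for Krt18, -0.463 to 0.296 for Krt23, -0.313 to 1.072 for Krt75 and -0.628 to 0.599 for Krt77.

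The scalings and the omission of WT library 1 in the count of keratins without overlap were chosen after seeing the data.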
